A study of Homo sapiens with 6 samples.

Results

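ETS1 and 9 other transcription factors of the ETS family (ETS2, ETV4, ETV5, ETV3, ELK1, ELK3, ELF1, ERF and GABPA) were examined in HEYA8 cells carrying a hairpin against ETS1. They were chosen by name, as the rows of the authors' table that bear those 10 symbols. All 10 were found, among 20061 rows in all, and each of the 10 had been tested by the authors. The remaining 18 genes of the human family were read beside them, so that 28 family genes are described.

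HEYA8 is an established human ovarian cancer cell line, labelled as a low grade serous carcinoma. Polyadenylated RNA was sequenced from 3 samples with a stable short hairpin RNA (shRNA) against luciferase, a gene that human cells lack (shLuciferase, the negative control), and from 3 samples with a stable shRNA against ETS1 (shETS1). All 6 samples carried a lentiviral construct and were kept under 5 micrograms per ml puromycin, with no other treatment. The sources used here give neither the hairpin sequence nor whether samples of a group came from separate cultures or clones, so the spread behind the authors' p-values may be technical. The table holds 1 value per gene and group, in FPKM (a fragment count divided by transcript length and by the size of the library), and no value per sample, so no spread between samples could be computed and depth is unknown. FPKM is scaled to transcript length, so levels can be set side by side between genes.

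ETS factors share a DNA-binding domain, the ETS domain, which recognises sites built around the core GGAA. ETS1 and ETS2 are activators that are phosphorylated by ERK kinases in the RAS pathway, and ETS1 is known for roles in lymphoid cells, in endothelial cells and in invasive tumours. Other branches act differently on the same kind of site: the PEA3 factors (ETV1, ETV4, ETV5) are activators induced downstream of growth factor receptors, the TCF factors (ELK1, ELK3, ELK4) bind with serum response factor, and ERF and ETV3 are repressors.

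The targeted gene fell and stayed expressed. ETS1 (chr11:128328656-128457453, hg19, minus strand) had a level of 41.4 FPKM with the luciferase hairpin and of 17.9 FPKM with the ETS1 hairpin. The level in shETS1 was thus 0.431 times that of the control, so it fell by 1.21 on the log2 scale. In the authors' deposited table its q-value is 0.00964. The q-value is the p-value adjusted for all 11952 tested rows, and a gene is called here at a q-value of at most 0.05. Since the deposited p-value of ETS1, 5e-05, is the smallest that the table holds, the error can only be bounded: a normal test with that p would have a standard error of 0.30 log2 units, and a smaller p would give a smaller one. The corresponding 95% interval for the level in shETS1 runs from 0.287 to 0.648 times the control. The same back-calculation from the deposited p gives the intervals quoted below. They restate the authors' test if it was a normal one, which was not checked, and are no measure taken from separate samples. At a high p they can be very wide. The kinase gene MAPK3, at a deposited p of 0.993, had an implied standard error of 2.88 log2 units.

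ETS1 ranked 2212 among all rows by level in shLuciferase and 4001 in shETS1. Of the 31 genes called lower with a value above 0 in both groups, 13 others fell by a larger factor. GENCODE 29 lists 6 coding transcripts of ETS1, the longest open frame encoding 485 residues. The table gives a value per gene, so the transcripts of ETS1 that remained in shETS1 cannot be assigned to isoforms.

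ETS1 was the only member that passed the test, 1 of 10, against 0.812% of all tested rows. Of all tested rows, 0.268% were called lower and 0.544% higher. Among all 28 family genes, 18 were tested and the count was again 1. It was also 1 at a q-value of 0.1 (1.26% of tested rows), at 0.01 (0.519%), and with q-values readjusted over rows with a mean of at least 1 FPKM (0.768%) or 5 FPKM (0.573%). Genes below either mean, ETV3 among them at 5 FPKM, could not be called there. At an unadjusted deposited p under 0.05 there were 2 members, ETS1 and ETV3, which were also the only such genes of the 18 tested (11.1%, against 6.94% of all tested rows). Without ETS1 it was 1 of 17 tested family genes (5.88%). By level in the control the members ran from ETV4 through ETS1, ERF, ELK3, ETV5, ETS2, ELK1, ELF1 and GABPA to ETV3, and with 1 value per group no neighbours in this order can be told apart by a test. ETS1 was the hairpin's target, so its call is a check of the knockdown and not a result about the family.

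**Figure D1:**
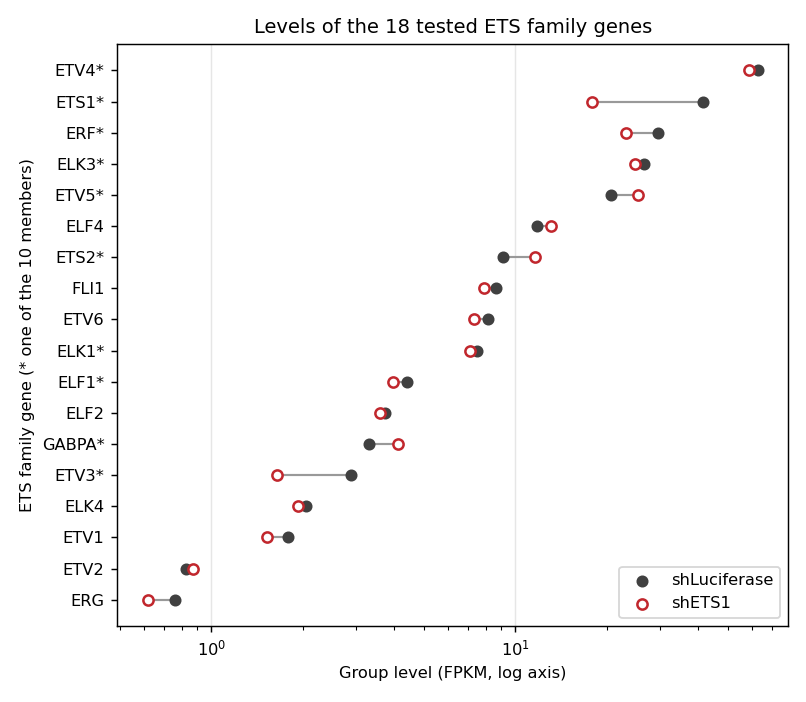
Level of each of the 18 tested ETS family genes (FPKM, horizontal log axis) in shLuciferase (filled dark points) and shETS1 (open red points), ordered by the control level, with an asterisk on the 10 members. ETS1 moves from 41.4 to 17.9 FPKM, from rank 2 to rank 5 in the family, while ETV4 stays highest at 62.9 and 58.7 FPKM; each point is the authors' 1 value per group, without an error.

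ETS2 is the closest relative of ETS1 and the other member of its branch. ETS2 (chr21:40177231-40196878, hg19, plus strand) had a level of 9.09 FPKM with the luciferase hairpin and of 11.7 FPKM with the ETS1 hairpin. The value in shETS1 was the higher one, by 0.36 on the log2 scale, and the deposited p was 0.134 (q-value 0.95 in the authors' deposited table). The interval implied by that p spans 0.927 to 1.77 times the control, so a rise beyond 1.77-fold lies outside it, and neither a smaller rise nor a slight fall does. ETS1 RNA was 4.56 times as abundant as ETS2 RNA in the control and 1.53 times in shETS1. The summed level of both genes came to 50.5 FPKM in the control but 29.5 FPKM in shETS1, which is 0.584 times the control sum.

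The PEA3 branch held the most abundant member. ETV4 (chr17:41605211-41623762, hg19) was at 62.9 FPKM in control cells against 58.7 FPKM in shETS1, with an implied interval of 0.665 to 1.31 times the control. ETV5 (chr3:185764106-185826901, hg19) was at 20.7 and 25.4 FPKM, the value in shETS1 being 1.23 times the control with an interval of 0.901 to 1.68. The deposited p-values were 0.692 for ETV4 and 0.193 for ETV5. ETV1, their remaining relative, was at 1.80 and 1.52 FPKM. The differences of these genes nearly cancelled in the sum, which came to 85.3 FPKM in the control against 85.6 FPKM in shETS1. The level of ETV4 was 1.52 times that of ETS1 in the control and 3.28 times in shETS1.

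Both members of the TCF branch had group values that lay close together. ELK3 (chr12:96588207-96661606, hg19), whose product can repress as well as activate, had a level of 26.5 FPKM with the luciferase hairpin and of 24.7 FPKM with the ETS1 hairpin, with an interval of 0.672 to 1.29 times the control. ELK1 (chrX:47494920-47510003, hg19), an activator of immediate early genes once phosphorylated by ERK, was at 7.46 and 7.08 FPKM, with an interval of 0.671 to 1.34. Their deposited p-values were 0.664 and 0.769. The remaining TCF gene ELK4 was at 2.05 and 1.93 FPKM.

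Among the tested family genes, the repressors ERF and ETV3 had the lowest ratios after ETS1, and neither was called. ERF (chr19:42751717-42759309, hg19), a repressor that ERK removes from the nucleus, had a level of 29.5 FPKM with the luciferase hairpin and of 23.2 FPKM with the ETS1 hairpin. Its log2 ratio of -0.34 had a deposited p of 0.144 and an interval of 0.573 to 1.08 times the control. ETV3 (chr1:157094459-157108383, hg19, minus strand) was at 2.89 FPKM in control cells against 1.65 FPKM in shETS1. That ratio of 0.571 had the smallest deposited p of the family after ETS1, 0.0159, with an interval of 0.362 to 0.90, and in the authors' deposited table its q-value is 0.444. Its level is low, and with 1 FPKM added to both groups its log2 ratio went from -0.81 to -0.55. The next smallest deposited p among tested family genes was 0.134, that of ETS2.

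The stretch before the ETV3 start is shown because ETV3 had the lowest ratio of the 10 members other than ETS1, and that of GABPA because it held the longer ETS consensus. Both are the 250 bases before a gene start in RefSeq (GRCh38.p14), written 5′ to 3′ on the strand of the gene, with the core GGAA, or TTCC where it lies on the opposite strand, in capitals. ETV3 is at chr1:157138396-157138645 (minus strand) and GABPA at chr21:25734722-25734971 (plus strand).
ETV3: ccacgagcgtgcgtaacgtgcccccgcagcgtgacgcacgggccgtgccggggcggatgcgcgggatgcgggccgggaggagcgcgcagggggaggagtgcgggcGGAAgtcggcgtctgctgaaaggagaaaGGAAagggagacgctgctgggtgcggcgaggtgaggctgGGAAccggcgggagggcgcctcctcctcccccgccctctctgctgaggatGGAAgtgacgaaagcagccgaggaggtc
GABPA: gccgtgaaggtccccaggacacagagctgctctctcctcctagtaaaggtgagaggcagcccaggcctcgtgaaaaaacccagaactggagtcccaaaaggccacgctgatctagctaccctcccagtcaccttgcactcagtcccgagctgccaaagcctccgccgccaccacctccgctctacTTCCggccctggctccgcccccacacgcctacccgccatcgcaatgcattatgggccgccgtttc
The ETV3 window holds 4 GGAA cores and the GABPA window 1. Windows of ETS2 hold 3 and 6 cores, those of ELK3 2 and 6, and those of ELF1 0, 3 and 5. The window of ELK1 holds 3, and those of ERF hold 4, 2 and 1. Whether these counts go with the ratios was not tested. Of 35116 such windows of the table, 92.7% hold GGAA on either strand, with a median of 3 matches and at least 3 in 55.1%. The longer consensus CCGGAAGT, searched on both strands and containing the same core, is found in 3.42% of windows. The 7 members with a window had 13 windows, 12 of them with GGAA. The longer consensus was in 1 of these 13, that of GABPA, on the opposite strand and starting 67 bases before the gene start. ETS1, ETV4 and ETV5 were not matched in the table. These matches describe letters and do not show that a factor binds.

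GABPA (chr21:27096791-27144771, hg19, plus strand), which binds DNA together with GABPB proteins and is known for driving mitochondrial and housekeeping genes, had a level of 3.29 FPKM with the luciferase hairpin and of 4.11 FPKM with the ETS1 hairpin. Its interval was the widest of the members, 0.575 to 2.71 times the control, at a deposited p of 0.577. The deposited locus of GABPA is also that of ATP5J, a subunit of the mitochondrial ATP synthase, at 118 and 123 FPKM. The protocol describes no marking of strand, so reads of both genes may not be separable where they overlap. GABPB1 and GABPB2, which encode its partners, were at 8.60 and 2.51 FPKM in the control and at 8.76 and 2.43 FPKM in shETS1.

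ELF1 (chr13:41506055-41593508, hg19), best known from lymphoid cells, had a level of 4.42 FPKM with the luciferase hairpin and of 3.95 FPKM with the ETS1 hairpin. The interval was 0.626 to 1.28 times the control and the deposited p 0.54. Its relatives ELF2 and ELF4 were at 3.73 and 11.8 FPKM in the control and at 3.58 and 13.1 FPKM in shETS1. The branch summed to 19.9 FPKM in control cells against 20.7 FPKM in shETS1.

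**Figure D2:**
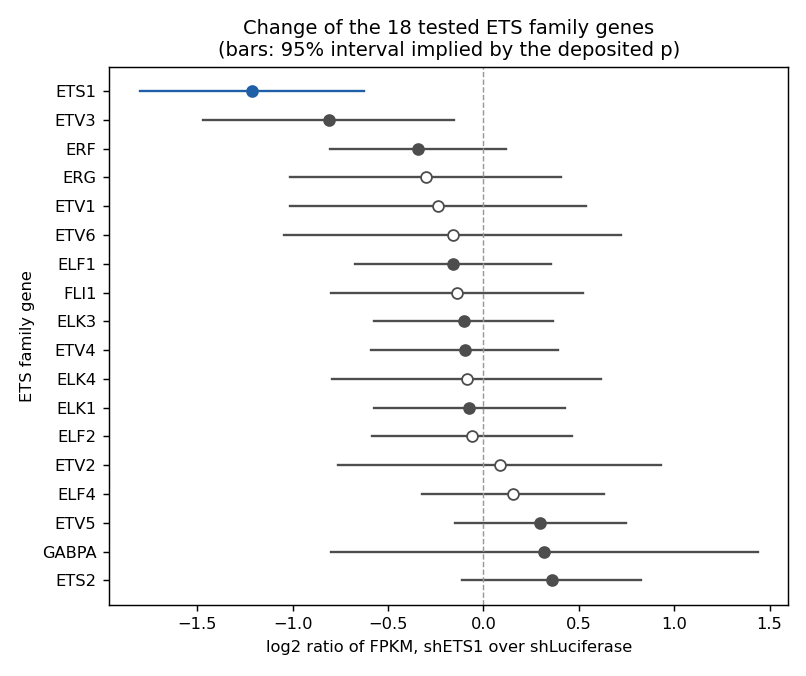
Log2 ratio of FPKM, shETS1 over shLuciferase (horizontal axis), of the 18 tested ETS family genes (vertical axis), with filled points for the 10 members and bars for the 95% interval implied by the deposited p. ETS1 (blue) at -1.21 is the called gene; the bar of ETV3 at -0.81 also lies below 0 before adjustment, and the bars of the other 16 genes cross 0.

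The other 9 members spanned ratios from 0.571 (ETV3) to 1.28 (ETS2). For 8 of these 9 the implied interval included no change. Their implied standard errors ran from 0.23 log2 units for ETV5 to 0.57 for GABPA, beside a median of 0.26 over tested rows with a mean of at least 1 FPKM. No gene with a change under 1.83-fold was called anywhere in the table, so changes of the size seen for ERF, ETV5 or ETS2 were below what the authors' test called. A shift of that size is therefore neither shown nor excluded for these genes.

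Of the 10 members, 7 had a log2 ratio below 0, and their median was -0.10. The 16 family genes with a mean of at least 1 FPKM had the same median, with 12 below 0 (75%). Both counts include ETS1, the hairpin's target, and without it they were 6 of 9 and 11 of 15. With a trend on GC content removed, 5 of the 10 members and 10 of the 16 family genes lay below 0. Leaving out ETS1 as well, the members had a median of 0.04 and the family genes one of -0.18. Before that removal, the 10676 tested rows at 1 FPKM or more had a median of 0.02, with 47.4% below 0. Their median absolute change was 1.14-fold. By size of change, ETS1 lay at percentile 99.6 of those rows and ETV3 at 97.8. ETS2 and ERF lay at percentiles 80.0 and 78.3, GABPA at 75.0 and ETV5 at 71.9. ELF1, ELK3, ETV4 and ELK1 lay at percentiles 45.0, 30.3, 28.8 and 22.1, inside the bulk of expressed genes.

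**Figure D3:**
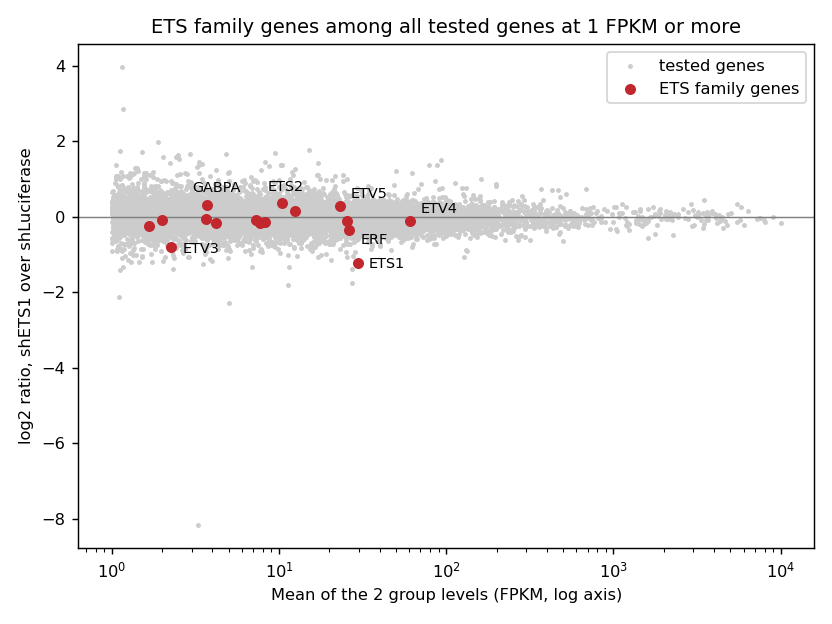
Log2 ratio, shETS1 over shLuciferase (vertical axis), against the mean of both group levels (FPKM, horizontal log axis) for the 10676 tested genes at 1 FPKM or more (grey) and the 16 ETS family genes among them (red). ETS1 lies below the cloud at -1.21 and ETV3 near its lower edge at -0.81; the other 14 red points lie between -0.34 and 0.36.

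The make-up of the ETS family RNA pool differed between the groups mainly by ETS1. Summed over 28 genes, the level was 246.1 FPKM for shLuciferase against 215.5 FPKM for shETS1, a difference of -30.7 FPKM. Without ETS1 the sums were 204.7 and 197.6 FPKM, a difference of -3.48%. ETS1 made up 16.8% of the family sum in the control and 8.29% in shETS1, and ETV4 25.5% and 27.2%. By level ETS1 went from rank 2 to rank 5, behind ETV4, ETV5, ELK3 and ERF. Those 3 genes that came next to ETV4 in shETS1, ETV5, ELK3 and ERF, lay within 23.2 to 25.4 FPKM, and without values per sample their order cannot be called. The gains of all family genes with a higher value in shETS1 added up to 9.61 FPKM, while ETS1 alone fell by 23.6 FPKM. These are sums of group values, with no test, and FPKM does not measure protein.

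**Figure D4:**
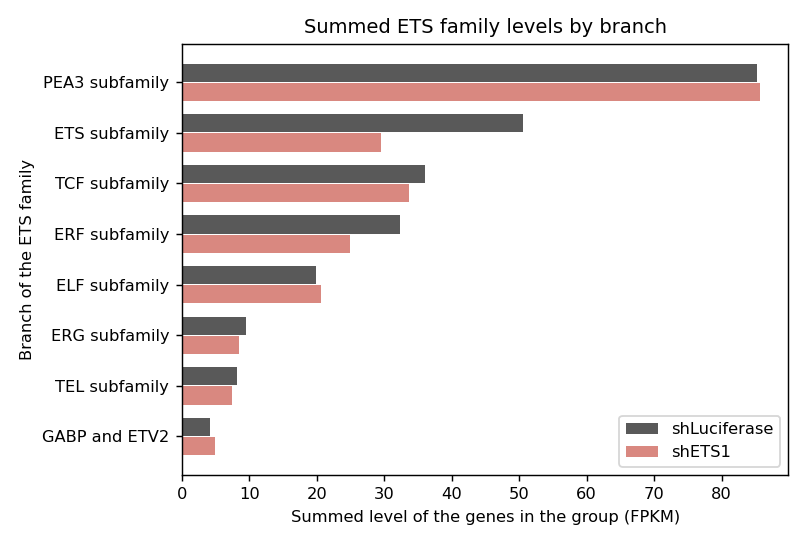
Summed level (FPKM, horizontal axis from 0) of the genes in each branch of the ETS family with a tested gene, in shLuciferase (dark bars) and shETS1 (light red bars), 1 value per group and no error. The bar of ETS1 and ETS2 shortens from 50.5 to 29.5 FPKM and that of ERF and its relatives from 32.3 to 24.9 FPKM, while the PEA3 bars are at 85.3 and 85.6 FPKM.

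Several ETS genes lie beside a relative. FLI1, an ETS factor of blood and endothelial cells, begins 99.0 kb from ETS1 on chromosome 11 with no row of the table between them (hg19). FLI1 was at 8.66 FPKM in control cells against 7.87 FPKM in shETS1, a ratio of 0.909 with an interval of 0.575 to 1.44 and a deposited p of 0.682. ERG, 143.5 kb from ETS2 on chromosome 21, was at 0.762 and 0.618 FPKM. ETV3L, 24.9 kb from ETV3, was listed at 0 in both groups.

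The family genes that were too low to be tested were at or near 0. These 10 genes, none of them among the chosen 10, were SPI1, SPIB, SPIC, ELF3, ELF5, EHF, SPDEF, ETV7, FEV and ETV3L, and their highest group value was 0.144 FPKM, that of ETV7 in shETS1. SPI1 and its relatives are factors of blood cells, and ELF3, ELF5, EHF and SPDEF of epithelia. The remaining tested genes were ETV6 at 8.16 and 7.30 FPKM and ETV2, a factor of the earliest endothelial cells, at 0.824 and 0.874 FPKM. Leukocytes and endothelium, which are rich in ETS1 and FLI1, were checked through their markers. Of 6 leukocyte markers, PTPRC, CD3E and TYROBP were listed at 0 in both groups, and the whole list summed to 0.672 FPKM for shLuciferase against 0.794 FPKM for shETS1, nearly all of it LYZ. The 5 endothelial markers found on the list, VWF, KDR, EMCN, CLDN5 and TEK, summed to 0.620 and 0.543 FPKM. Other endothelial genes, named after their values were seen, were expressed: CDH5 (VE-cadherin) fell from 17.6 to 5.00 FPKM and was called, while TIE1 was at 164 and 122 FPKM, ROBO4 at 21.0 and 12.8 FPKM and ESAM at 2.42 and 1.06 FPKM, none of these 3 called. The deposited p-values of TIE1, ROBO4 and ESAM were 0.0861, 0.00485 and 0.00215, with q-values of 0.852, 0.217 and 0.138. The part of endothelial genes in the levels of ETS1 and FLI1 was not tested. Of 3 markers of the line none was called and each had a ratio below 0, with a median log2 ratio of -0.45: the ovarian lineage factor PAX8 was at 79.7 and 76.8 FPKM, and the epithelial keratins KRT8 and KRT18 at 1913 and 2044 FPKM in the control and at 1288 and 1498 FPKM in shETS1. The deposited p-values of PAX8, KRT8 and KRT18 were 0.826, 0.206 and 0.351. KRT8 and KRT18 have the same deposited locus, and their implied standard errors were 0.45 and 0.48 log2 units. In bulk RNA, fewer cells with a transcript and less of it per cell cannot be told apart.

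Genes that work with ETS factors were read from 4 lists of 51 symbols, of which 49 were tested. None was called, and 2 had a deposited p under 0.05 (4.08%, against 6.94% of all tested rows). They were JUNB at 13.8 and 21.0 FPKM and JUND at 31.4 and 22.0 FPKM, whose q-values were 0.438 and 0.632 in the authors' deposited table. These AP-1 subunits bind beside ETS factors at many composite sites, and they are named here for their p-values. Of the 19 DNA-binding partners, 12 had a ratio below 0 and the median log2 ratio was -0.05. FOSL1, an AP-1 subunit, was at 703 and 756 FPKM, JUN at 152 and 127 FPKM, and SRF, the partner of the TCF factors, at 18.9 and 15.1 FPKM.

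Of the 12 coactivators and corepressors, 10 had a ratio below 0, with a median of -0.11. Over all tested rows with a mean of at least 1 FPKM, 47.4% were below 0. The trend on GC content was not removed for these lists, so the part of base composition in their counts was not tested. The histone deacetylase HDAC1 was at 51.5 and 49.6 FPKM. CREBBP and EP300, the acetyltransferases that ETS1 and ETS2 recruit, were at 8.68 and 4.22 FPKM in the control and at 6.59 and 3.32 FPKM in shETS1, with deposited p-values of 0.0939 and 0.168. Of the upstream kinases 11 were tested, 4 of them with a ratio below 0, and the median was 0.01. MAP2K2, which activates ERK, was at 223 and 225 FPKM. Of the 7 tested genes of ETS protein turnover, 1 had a ratio below 0, and the median was 0.08. RFWD2, the ligase subunit COP1 that marks ETS1 and the PEA3 factors for degradation, was at 14.0 and 14.3 FPKM, and DDB1 and CUL4A were at 82.4 and 27.6 FPKM in the control and at 69.5 and 27.9 FPKM in shETS1.

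Fold changes were related to transcript base composition over all genes (Spearman rho -0.47 across 9677 genes with a value, which share the 2 group values and are not independent). The transcript GC value used for ETS1, for a length of 5139 bases, is 42.6%, below the median of 49.9%. With a trend on GC content removed the log2 ratio of ETS1 was -1.32. For ETV3 (45.4% GC) it was -0.86, and for ETS2 (48.7% GC) 0.36. ERF, at 64.0% GC the richest member, went from -0.34 to -0.18, and GABPA, at 36.4% the poorest, from 0.32 to 0.08. Further from 0 than before were ELF1 (38.1% GC), from -0.16 to -0.36, and ELK3 (42.7% GC), from -0.10 to -0.21, while ETV5 stayed at 0.30. The ratios of ETV4 and ELK1 had the other sign, at 0.05 and 0.04. The part of base composition in these ratios was not otherwise tested.

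Among called genes with a mean of at least 1 FPKM, those whose log2 ratio lay nearest to that of ETS1 were TMEM92 (2.02 and 0.884 FPKM), ARHGAP30 (5.50 and 2.44 FPKM), ALS2CL (4.97 and 2.08 FPKM), ARHGAP31 (2.78 and 1.24 FPKM) and PKP2 (1.72 and 0.774 FPKM). The likeness is over 2 group values and is the distance between log2 ratios, at most 0.06.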

How the data were processed

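Polyadenylated RNA of 6 HEYA8 samples, 3 per hairpin, was sequenced. Per the submitters' processing notes, the genome build was hg19 and the tools were Cufflinks 2.1.1, TopHat2 2.0.7, Bowtie2 2.0.6 and SAMtools 0.1.18, named without roles. The sources used here do not give the annotation, scaling or dispersion settings. Per the file headers, the authors deposited for each gene 1 FPKM value in either group, their log2 fold change, a test statistic (a score, left unused), the p-value and its adjusted q-value. Those q-values matched a Benjamini-Hochberg adjustment over tested rows within 5.16e-07. The 28 gene names that a spreadsheet had turned into dates are no ETS genes' rows.

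Ratios were recomputed from the FPKM values. The standard error implied by a deposited p is the absolute log2 ratio divided by the two-sided normal quantile of p, an addition made after seeing that there is no value per sample. Therefore the planned limma fit did not apply. Transcript GC came from GENCODE 29 by symbol, as 1 value and 1 transcript length per gene (90.6% of expressed rows), and promoter letters from RefSeq. Scripts (Python 3.11.15, scipy 1.17.1) were tested on simulated data. Starts have 1 added, so that they count from 1. All family genes are named; of other lists, called genes or else the 2 most abundant, and further ones by role, chosen after their values were seen. A few listed genes are not reported here. Members and lists were chosen with earlier results of these data known. Pseudocount, scaling, threshold, level minimum and GC trend were varied.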

Additional observations from a re-analysis of the deposited data

How the results depend on the processing

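No paired analysis was possible because the table gives 1 value per group, and for the same reason no sample could be left out and no depth is known. The log2 ratio of ETS1 ranged from -1.32 to -1.17 over the 5 settings tried (1 or 0.1 FPKM added, 2 scalings, GC trend removed). ETS1 was also the family's called gene at q-values of 0.1 and 0.01, and with q-values readjusted over rows with a mean of at least 1 or 5 FPKM. None of the 49 partner, cofactor, kinase and turnover genes was called in those 4 settings. The setting at 5 FPKM leaves out genes with a lower mean, which could not be called there. Examples are EP300, with a mean of 3.77 FPKM, and, in the family, ETV3 with 2.27 FPKM. The same 5 settings gave 45 ratios for the other 9 members. None moved by more than its implied standard error, and 2 changed sign, those of ETV4 and ELK1 with the GC trend removed. The 2 scalings shift all genes alike, by 0.01 and 0.02 log2 units. With a lowest implied standard error of 0.23, they could not have passed that limit. The family median ranged from -0.19 (GC trend removed) to -0.10 and moved by less than 0.1 log2 units, the tolerance used. The share of ETS1 in the summed level, 16.8% and 8.29% over the family, was 19.9% in shLuciferase and 10.0% in shETS1 over the 10 members only, which by construction have a smaller sum. Rescaling to equal totals moved all log2 ratios by 0.01.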

Other observations

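Besides GABPA, 2 tested family genes have a deposited locus that holds another row. ELK4 shares its locus with SLC45A3, at 5.29 FPKM in control cells against 2.43 FPKM in shETS1, with a deposited p of 0.138, while ELK4 itself was at 2.05 and 1.93 FPKM. ETV6 shares its locus with BCL2L14, at 0.0210 and 0.0438 FPKM. The implied standard errors of GABPA, ETV6 and ELK4 were 0.57, 0.45 and 0.36 log2 units, beside an upper quartile of 0.31 over tested rows with a mean of at least 1 FPKM. Without these 3 genes the family median was -0.10, as with them.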
